A study of Mus musculus and Rattus norvegicus with 26 samples.

Results

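Genes for the proteins of the ribosome and for the factors that drive translation were followed through 6 lists of intronic contigs, stretches of intron that held RNA-seq reads, from a study of cytoplasmic intron-sequence retaining transcripts (CIRTs). The members are all contigs whose gene symbol begins with Rpl or Rps followed by a digit, or with Eif or Eef. They came to 1369 of 112345 contigs and to 150 of 13695 gene symbols over the 6 lists. The symbol rule also takes in genes that are neither ribosomal proteins nor translation factors, namely the S6 kinases (Rps6k), the kinases of eIF2 (Eif2ak), eEF2 kinase (Eef2k), the Argonautes under their older Eif2c symbols and the S19-binding protein Rps19bp1. These are kept and given apart, as kinases and Argonautes.

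Each list pools the libraries of one condition. The numbers of libraries given are those the labels hold. The study's text counts fewer single BAT cells and cardiomyocytes than the labels, and the lists do not show which libraries were pooled. The mouse dendrite and mouse soma lists (3 libraries each) come from hippocampal neurons of C57BL/6 embryos of day 18, the rat dendrite and rat soma lists (2 and 3 libraries) from Sprague-Dawley embryos of day 18. The BAT cell list (6 libraries) holds single cells of interscapular brown adipose tissue of CD-1 embryos of day 17.5, and the cardiomyocyte list (9 libraries) single ventricular cells of transgenic C57BL/6 embryos of day 14.5, which carry the Fucci cell cycle reporter and were flow sorted. No group received a treatment, and all RNA passed through 3 rounds of aRNA amplification, which starts from a poly(T) primer. The neurons of the embryos were grown in culture before dissection. Each dendrite library pooled many dendrites dissected by hand, whereas each soma library came from a single cell, so input and compartment differ together. Somas, BAT cells and cardiomyocytes contain the nucleus, so in these 4 lists unspliced nuclear RNA and retained introns in the cytoplasm cannot be told apart. For these 4 lists the authors kept only contigs of at most 400 nt as candidate CIRTs, to limit nuclear RNA, but the deposited lists also hold longer ones, which were used here. Of member contigs 23.3%, 17.3%, 37% and 35.4% were longer in mouse soma, rat soma, BAT cells and cardiomyocytes (all contigs 32.8%, 38%, 34% and 36.3%), and all values below include them unless stated. Strain, age, tissue and number of libraries differ together between most lists, the lists carry no replicates, and no difference between lists below was tested. The intervals given are exact 95% binomial intervals and cover counting error only. Markers of the labelled cell types set the lists apart in part. Introns of all 6 cardiomyocyte markers were listed in cardiomyocytes (321161 reads) and of 4 in BAT cells (22833 reads), and of 5 of 6 brown adipocyte markers in BAT cells (63206 reads) and 3 in cardiomyocytes (3505 reads). Of 6 neuronal markers 4 and 5 were listed in the mouse dendrites and somas and 2 and 3 in those of the rat, but 4 in BAT cells and 2 in cardiomyocytes as well, and Map2 was in none of the 6 lists. Their summed level was 1362.7, 3136.7, 376 and 1397.9 RPM (reads per 1000000 listed intronic reads) in mouse dendrite, mouse soma, rat dendrite and rat soma, against 575 in BAT cells and 923 in cardiomyocytes, so rat dendrite lay below the 2 non-neuronal lists. Mouse dendrite also listed 5 of the 6 cardiomyocyte markers (1601 reads), 4 of the 6 brown adipocyte markers (993 reads) and all 3 astrocyte (157 reads) and all 3 oligodendrocyte lineage markers (72 reads), and the part of this in the results was not tested. The other 3 neuronal lists had 1 or 2 of the cardiomyocyte and of the brown adipocyte markers.

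A ribosome is built from ribosomal RNA and a set of ribosomal proteins, those of the large subunit (Rpl) and those of the small subunit (Rps). Their genes are short, have few and mostly short introns, are transcribed at high levels in nearly all cells, and often carry small nucleolar RNAs (snoRNAs) within their introns. Initiation factors (eIFs) bring the initiator tRNA, the mRNA cap and the ribosomal subunits together, and elongation factors (eEFs) move the ribosome along the coding sequence. In neurons many ribosomal protein mRNAs are known to reach the dendrites, where translation can be regulated locally.

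Among the introns listed under the same gene and intron number in all 6 lists, several are short enough to be shown entire. They were chosen for their length, at most 300 nt, and are given to show their splice sites and the bases that contigs covered. Other shared introns are longer, such as Rps6 intron 4 (911 nt). Introns of mouse and rat were paired by gene and number alone, without a check of position. Sequences are read from the mouse genome (NCBIM37) on the strand of the gene, with the first and last 2 bases of the intron in capitals. The bases for Rpl41 are those of its listed contig, since its transcript was not matched to the annotation, and this intron was in 5 of the 6 lists.
Rps16 intron 4, chr7:29137430-29137512, plus strand: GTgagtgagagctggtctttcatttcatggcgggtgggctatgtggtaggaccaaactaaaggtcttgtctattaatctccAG
Eef1b2 intron 5, chr1:63225948-63226031, plus strand: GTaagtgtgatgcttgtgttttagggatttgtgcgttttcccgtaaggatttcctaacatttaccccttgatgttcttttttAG
Rps18 intron 3, chr17:34089258-34089347, minus strand: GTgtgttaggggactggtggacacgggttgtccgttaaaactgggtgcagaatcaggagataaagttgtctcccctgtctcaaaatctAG
Rpl18 intron 5, chr7:52975858-52976083, plus strand: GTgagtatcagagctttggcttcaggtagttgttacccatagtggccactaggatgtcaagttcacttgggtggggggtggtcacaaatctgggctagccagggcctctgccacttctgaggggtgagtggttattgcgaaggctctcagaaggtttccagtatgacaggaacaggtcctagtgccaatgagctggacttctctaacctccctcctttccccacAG
Rpl41 intron 3, chr10:127985486-127985713, minus strand: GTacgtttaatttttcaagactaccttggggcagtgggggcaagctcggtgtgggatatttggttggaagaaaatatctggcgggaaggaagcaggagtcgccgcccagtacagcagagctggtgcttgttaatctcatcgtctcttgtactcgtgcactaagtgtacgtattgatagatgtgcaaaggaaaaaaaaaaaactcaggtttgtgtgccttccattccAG
All 5 begin with GT and end with AG. Of the member introns that matched the annotation, 132 of 133 in mouse dendrite, 93 of 93 in mouse soma, 385 of 385 in BAT cells and 241 of 241 in cardiomyocytes did so. Contigs covered the Eef1b2 intron from the first to the last base in all 4 mouse lists. The Rps16 intron was covered to 75.9% in mouse dendrite and to 100% in the other 3 mouse lists.

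Members made up 141 of 19477 listed introns in mouse dendrite, which is 0.724% (interval 0.61 to 0.853), and 95 of 10568 in mouse soma, 0.899% (0.728 to 1.1). In rat dendrite they were 229 of 7426, 3.08% (2.7 to 3.5), and in rat soma 144 of 5315, 2.71% (2.29 to 3.18). BAT cells listed 392 of 30018, 1.31% (1.18 to 1.44), and cardiomyocytes 247 of 13056, 1.89% (1.67 to 2.14). The share was thus lowest in the mouse neuronal lists and highest in the rat neuronal lists, with intervals of the mouse and rat lists that did not overlap. The lists held 3086576, 1855447, 1007530, 2094541, 17858440 and 12201042 listed intronic reads, given here and throughout with the mouse dendrite and soma first, then the rat dendrite and soma, and last BAT cells and cardiomyocytes. Members took 0.618%, 0.386%, 1.78%, 0.993%, 0.922% and 0.977% of these reads. With only introns that had a contig of at most 400 nt the rat soma value was 2.33%, and counting an intron's reads once for each of its contigs brought the BAT cell and cardiomyocyte values to 0.52% and 0.461%.

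Split by family, the difference between species was largest for ribosomal proteins. Their introns were 35 in mouse dendrite (0.18% of the list, interval 0.125 to 0.25) and 162 in rat dendrite (2.18%, 1.86 to 2.54), a share 12.1 times as high in rat. In somas they were 42 (0.397%, 0.287 to 0.537) in mouse and 92 (1.73%, 1.4 to 2.12) in rat, 4.36 times as high. Translation factors had shares of 0.344% in mouse dendrite and 0.687% in rat dendrite, 2 times as high, and 0.312% and 0.677% in the somas, 2.17 times. The kinases and Argonautes lay at 0.2% and 0.215% in the dendrites, a ratio of 1.08, and at 0.189% and 0.301% in the somas, a ratio of 1.59. The rat lists are shorter, were made on another genome build (rn4) and rest on another gene annotation, and the part of these in the ratios was not tested. Among introns with at least 32 reads, a limit chosen after the data were seen, the ribosomal protein share was 0.0669% and 0.278% in the mouse dendrites and somas and 1.78% and 1.12% in those of the rat. Mitochondrial ribosomal proteins, which form the separate ribosome of the mitochondrion and whose symbols begin with Mrpl or Mrps, were at 0.154% and 0.391% in mouse and rat dendrite and at 0.255% and 0.376% in mouse and rat soma.

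Outside neurons ribosomal protein introns numbered 164 in BAT cells (0.546%, 0.466 to 0.636) and 139 in cardiomyocytes (1.06%, 0.896 to 1.26). Translation factors were at 0.553% and 0.643% in the same lists. Ribosomal proteins thus stood level with the translation factors in BAT cells and above them in cardiomyocytes, whereas in mouse dendrite they stood below them.

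**Figure D1:**
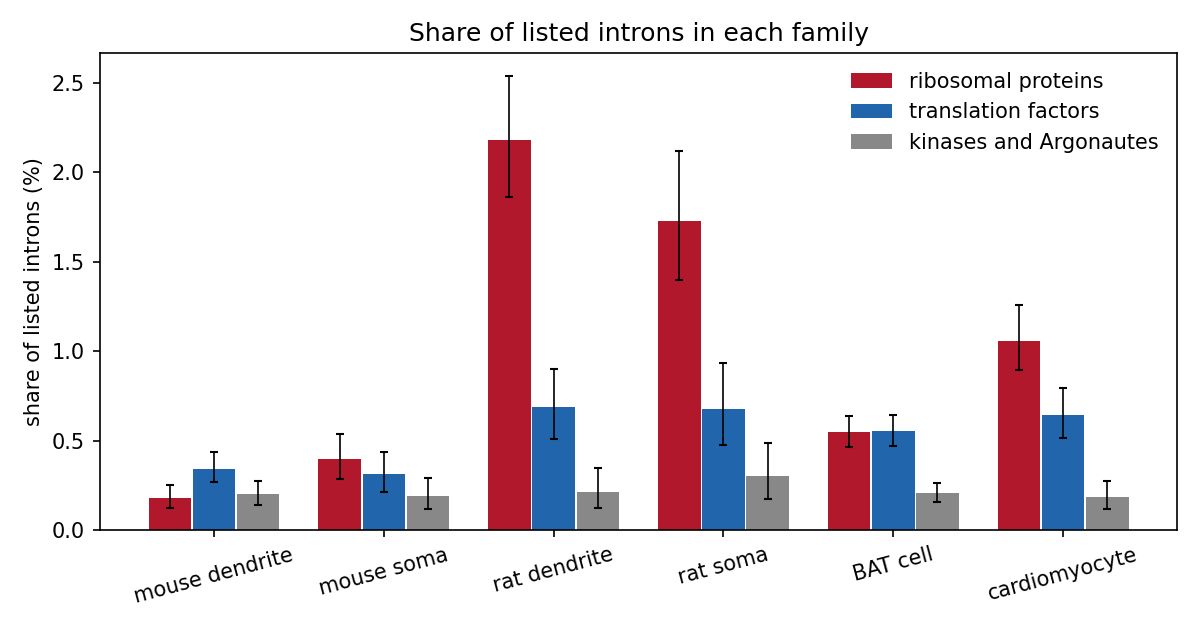
Share of all listed introns (percent, vertical axis) that belong to ribosomal protein genes, translation factor genes, and the kinases and Argonautes, in each of the 6 lists; bars show the share and lines its exact 95% binomial interval. Ribosomal proteins range from 0.18% in mouse dendrite to 2.18% in rat dendrite, while the kinases and Argonautes stay between 0.184% and 0.301%.

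The reads per intron showed another order. The median ribosomal protein intron had 5 reads in mouse dendrite, 13 in mouse soma, 12 in rat dendrite, 10 in rat soma, 122 in BAT cells and 69 in cardiomyocytes. Over all listed introns the medians were 24, 22, 14, 24, 29 and 53. Ribosomal protein introns were therefore below the list's own median in the 4 neuronal lists and above it in the BAT cell and cardiomyocyte lists. Per 50 nt of contig the medians were 1.55, 3.07, 2.43, 2.45, 14.1 and 11.1 reads against 3.31, 3.08, 2.52, 4.32, 4.13 and 8.78 over all introns, so that in mouse soma and rat dendrite the gap was nearly gone. Translation factor introns had medians of 12, 10, 12, 7, 37.5 and 31.5 reads. Contigs of members had median lengths of 237 and 231 nt in mouse dendrite and soma, 250 and 224 nt in rat dendrite and soma, 279 nt in BAT cells and 276 nt in cardiomyocytes, and all contigs 257, 278, 279, 304, 274 and 283 nt in the same order. For members with at least 32 reads the mouse soma median was 382 nt. Since lists differ in the number of libraries and in depth, read numbers are comparable within a list, and between lists only as RPM, reads per 1000000 listed intronic reads.

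**Figure D2:**
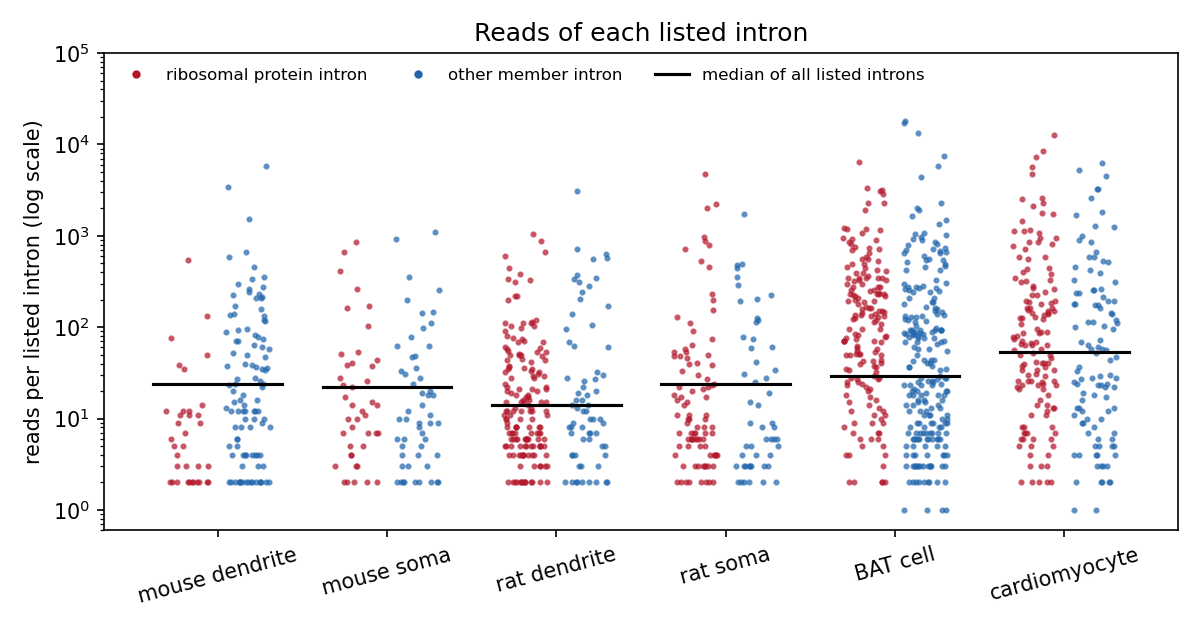
Reads of each listed member intron (vertical axis, log scale) in the 6 lists, with ribosomal protein introns and the other member introns as separate columns of points and the median of all introns of the list as a black line. Ribosomal protein introns lie mostly under the line in mouse dendrite (median 5 against 24) and mostly over it in BAT cells (122 against 29).

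The large subunit had introns of 15, 15, 36, 31, 34 and 31 genes in the 6 lists, and 8 of its 46 listed genes were in all 6. Rpl41, which encodes the smallest ribosomal protein, was the most read of them in BAT cells and cardiomyocytes, with 3 reads in mouse dendrite, 12 in mouse soma, 8 in rat dendrite, 784 in rat soma, 7585 in BAT cells and 14974 in cardiomyocytes. Its intron 3 alone had 12791 reads in cardiomyocytes, the most of any member intron there, and 6455 in BAT cells. In RPM the gene stood at 1227.3 in cardiomyocytes, 425 in BAT cells and 374 in rat soma, and at 0.972 in mouse dendrite.

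Rpl6 was high in a single list. It had 4241 reads in rat soma, from introns 5 (2217 reads) and 1 (2008 reads) chiefly, against 13 in rat dendrite, 2 in mouse dendrite, 5 in mouse soma, 293 in BAT cells and 122 in cardiomyocytes. Rpl9 had 6273 reads over 5 introns in cardiomyocytes and 3806 over 6 introns in BAT cells, 70 and 16 in the rat dendrite and soma, 4 in mouse soma and none listed in mouse dendrite. Rpl5, which carries 5S ribosomal RNA into the large subunit, was a rat dendrite gene in these data, with 677 reads there, 11 in rat soma, 5 in BAT cells and no listed intron in the other 3 lists. Rpl8 had 857 reads in mouse soma, all in intron 5, a 149-nt intron covered whole. The same gene had 1218 reads in BAT cells, 408 in cardiomyocytes, 11 in rat dendrite, 2 in rat soma and none listed in mouse dendrite.

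Among the other large subunit genes of all 6 lists, Rpl7 had 14, 15, 31 and 11 reads in the 4 neuronal lists and 1910 and 1502 in BAT cells and cardiomyocytes. Rpl13a had 12, 49, 64 and 49 reads in the neuronal lists, 1303 in BAT cells and 934 in cardiomyocytes. In RPM, Rpl7 stood at 4.54, 8.08, 30.8, 5.25, 107 and 123, below BAT cells and cardiomyocytes in each neuronal list. Rpl13a stood at 3.89, 26.4, 63.5, 23.4, 73 and 76.6 RPM, so that its rat dendrite value lay near those of the last 2 lists. Rpl22l1, a paralogue of Rpl22, was instead highest by RPM in rat dendrite (229) and mouse soma (227), with 231 and 421 reads, and had 2 reads in mouse dendrite, 96 in rat soma, 229 in BAT cells and 203 in cardiomyocytes. Rpl35 had 16, 263, 105, 2, 486 and 173 reads in the 6 lists, Rpl18 had 3, 61, 32, 160, 271 and 120, and the single intron of Rpl36al had 39, 8, 12, 5, 345 and 57. No list was highest for all of these genes in RPM.

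For the small subunit 13, 13, 27, 23, 23 and 23 genes were listed, and 10 of its 31 listed genes were in all 6 lists. Rps16 had the most reads of any member in rat soma, 4805, of which 4720 were in intron 2. It had 571 in rat dendrite, 162 in mouse soma, 12 in mouse dendrite, 319 in BAT cells and 180 in cardiomyocytes, and in the mouse lists these were all in intron 4, the intron shown above. Rps7 and Rps13 were cardiomyocyte genes by read number. Intron 6 of Rps7, 430 nt long, had 8570 reads in cardiomyocytes, 300 in BAT cells and 169 in mouse soma. Intron 5 of Rps13, 795 nt long, had 7206 reads in cardiomyocytes, 273 in BAT cells and 14 in mouse soma. Both were covered from end to end in cardiomyocytes and BAT cells.

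Rps24, mutated in a form of Diamond-Blackfan anaemia in people, was in the rat lists only. Its intron 4 had 1044 reads in rat dendrite and 530 in rat soma, and its intron 3 had 6 and 2. On rn4 the 2 contigs of intron 4 in rat dendrite lay between chr16:46101-48309, and together held 783 nt. None of the 4 mouse lists held an intron of Rps24. Rps9 had 894 reads in rat dendrite, 877 of them in intron 4, and 52 in rat soma, 7 in mouse soma, 1223 in BAT cells and 81 in cardiomyocytes.

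Rps6, the ribosomal protein that the S6 kinases phosphorylate, had 661 reads in mouse soma and 3 in mouse dendrite, in the same intron 4. Its reads in rat dendrite (358) exceeded those in rat soma (76), and BAT cells and cardiomyocytes had 468 and 178. Rps19, the gene most often mutated in Diamond-Blackfan anaemia, gave the reverse in mouse, with 539 reads in intron 5 in mouse dendrite and no listed intron in mouse soma. It had 129, 22, 724 and 649 reads in rat dendrite, rat soma, BAT cells and cardiomyocytes. That Rps19 intron held more reads than the other 34 ribosomal protein introns of mouse dendrite, whose 35 introns together had 1031.

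Among other small subunit genes of all 6 lists, Rps4x, the X-linked copy of the S4 gene, had 22, 5, 67, 7, 1296 and 1658 reads. In RPM it was at 136 in cardiomyocytes against 72.6 in BAT cells. Rps18 (11, 5, 70, 14, 1011 and 198 reads) had its highest RPM in rat dendrite, at 69.5. Rps3a had 2, 4, 13, 4, 297 and 959 reads.

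Initiation factors gave the most read member introns of mouse dendrite and of BAT cells. The subunits of eIF3, the large scaffold that binds the small ribosomal subunit and recruits the mRNA, had 17, 13, 19, 15, 65 and 37 listed introns. Intron 1 of Eif3h had 5783 of the 19072 member reads of mouse dendrite, and 28 reads in mouse soma, 1030 in BAT cells and 141 in cardiomyocytes. In mouse dendrite these reads fell in 3 contigs of together 1491 nt, 6.57% of an intron of 22701 nt. Eif3e gave the opposite pattern, with 17154 reads in intron 5 in BAT cells, where a contig of 2424 nt, over the authors' limit of 400 nt for whole cells, took 52.5% of the intron. Over all its introns Eif3e had 161, 253, 352, 419, 17913 and 669 reads. Eif3c, at 374, 27, 778, 37, 1280 and 67 reads, and Eif3a, at 153, 8, 746, 45, 1560 and 411 reads, had more reads in dendrites than in somas in both species, although the libraries of the 2 compartments were not compared by a test. In RPM the dendrite and soma values were 121 and 14.6 in mouse and 772 and 17.7 in rat for Eif3c, and 49.6 and 4.31 in mouse and 740 and 21.5 in rat for Eif3a.

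eIF2 carries the initiator tRNA, eIF2B reloads it with GTP and eIF5 triggers hydrolysis of that GTP. Of 18 listed genes of this group, Eif2b3, a subunit of eIF2B, was the one in all 6 lists. It had 4104 reads in mouse dendrite, 3420 of them in intron 4, against 12 in mouse soma, 15 in rat dendrite, 138 in rat soma, 692 in BAT cells and 359 in cardiomyocytes. Mouse dendrite thus held more reads of the gene than the other 5 lists did together. Intron 6 of Eif5 was the most read member intron of BAT cells, with 18102 reads, where a single contig, also over that limit, covered all 1133 nt (chr12:112778784-112779916). That contig overlapped the annotated snoRNA Snora28. The same intron had 1682 reads in cardiomyocytes, over 54.6% of its length, and 23 in mouse dendrite. Eif2s3x, the X-linked gene of the third eIF2 subunit, had 913 reads in intron 4 in mouse soma and 4 there in mouse dendrite. Eif5b, which joins the ribosomal subunits, had 98 reads in mouse dendrite, 310 in rat dendrite, 338 in BAT cells and 3358 in cardiomyocytes, and was not listed in either soma.

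Cap-binding and scaffold factors of the eIF4 group were found in fewer lists, and 1 of 15 genes, Eif4g3, was in all 6. This scaffold gene had 380, 266, 100, 7, 6606 and 4732 reads. Its intron 12, of 19650 nt, was in all 4 mouse lists with 88, 198, 725 and 236 reads, yet its contigs covered between 1.88% and 3.28% of the intron and lay at different places. Eif4e, the cap-binding protein itself, had 1515 reads in intron 3 in mouse dendrite and 6310 in intron 4 in cardiomyocytes. It had 551 reads in BAT cells and was in none of the soma lists nor in rat dendrite. The related Eif4e2 had 13325 reads in BAT cells and 88 in mouse dendrite, and Eif4a1, the RNA helicase, 911 in rat dendrite and 93 in BAT cells. Each of these 2 genes was in no other list.

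Introns of elongation factors and eEF2 kinase were few, 8, 6, 8, 6, 23 and 15 in the 6 lists. Eef1b2, which recharges eEF1A with GTP, had 22, 16, 47, 15, 3428 and 1859 reads, most of the BAT cell and cardiomyocyte reads being in intron 3 (2287 and 1274 reads). Its partner Eef1g had 266 reads in mouse dendrite, 264 of them in intron 7, and 10, 8, 3, 155 and 135 in the other lists. Eef1a1, one of the most abundant mRNAs of most cells, had 10 reads in mouse soma, 21 in rat dendrite, 4 in rat soma, 976 in BAT cells and 244 in cardiomyocytes, and was not listed in mouse dendrite. In RPM it stood at 54.7 in BAT cells, 20.8 in rat dendrite and 20 in cardiomyocytes. Eif6, which keeps the subunits apart, was listed in BAT cells alone, with 153 reads.

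Among the genes that share the symbols but not the function, Rps6ka3, a kinase of the RSK family, stood out by reads. It had 583 reads in mouse dendrite, 1286 in mouse soma, 3057 in rat dendrite, 14933 in BAT cells and 8222 in cardiomyocytes, and was not listed in rat soma. Its intron 3 was the most read member intron of rat dendrite (3055 reads) and intron 1 that of mouse soma (1091 reads). Rps6kb1, the S6 kinase downstream of mTOR, had 47, 378, 558, 1589 and 144 reads in mouse dendrite, rat dendrite, rat soma, BAT cells and cardiomyocytes. Rps6ka6 had 529 reads in mouse dendrite, 68 in rat dendrite and 964 in BAT cells, and Rps6ka2 had 373 and 269 in rat dendrite and soma but at most 26 in any mouse list. The eIF2 kinases slow initiation under stress. Eif2ak4, which senses lack of amino acids, had 894, 152, 106, 528, 42 and 5251 reads. Eif2ak3, the kinase of the endoplasmic reticulum, had 1751 reads in rat soma and 60, 19, 647 and 103 in mouse dendrite, rat dendrite, BAT cells and cardiomyocytes. Eif2ak1 had between 2 and 12 reads in every list but BAT cells (288), and Eif2ak2 had 436 in BAT cells and at most 27 elsewhere. Of the Argonautes, Eif2c3 had 525, 352, 951 and 900 reads in the 4 mouse lists and none listed in rat, Eif2c2 had 588 in mouse dendrite and 523 in cardiomyocytes, and Eif2c1 and Eif2c4 were at most at 644 and 280. Eef2k had at most 896 reads, in BAT cells, and Rps19bp1 had 26 reads there and was in no other list.

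How widely a gene was listed differed between the families. All 6 lists held 28 of the 150 member genes, 18.7%, against 854 of all 13695 gene symbols, 6.24%. By role these were 8 of 46 large subunit genes, 10 of 31 small subunit genes, 4 of 13 eIF3 genes, 2 of 4 eIF2 kinases, 2 of 8 genes of the elongation factors and eEF2 kinase, and 1 each of the eIF2 and eIF4 groups. Introns were shared too. Of 610 member introns told apart by gene and number, 17 were in all 6 lists, 2.79%, against 168 of 52787 over all genes, 0.318%, and 15 of the 17 were ribosomal protein introns. The other two were Eef1b2 intron 5 and Eif3c intron 2. The genes of the ribosome are read deeply in most cells and the levels of spliced mRNA are not in these lists, so the part of expression in this sharing was not tested.

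The 17 introns differed widely in reads between lists, whose totals differ as well. Rps6 intron 4 had 3, 661, 198, 20, 390 and 160 reads. Its 911 nt were covered to 15.6% in mouse dendrite, 75.7% in mouse soma and 100% in BAT cells and cardiomyocytes. Rps7 intron 3 was highest in rat soma, at 452 reads, with 2 to 29 in the other 5 lists. Eif3c intron 2 had 38, 19, 555, 28, 190 and 7 reads. In mouse dendrite the 17 introns had 2 to 39 reads each.

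**Figure D3:**
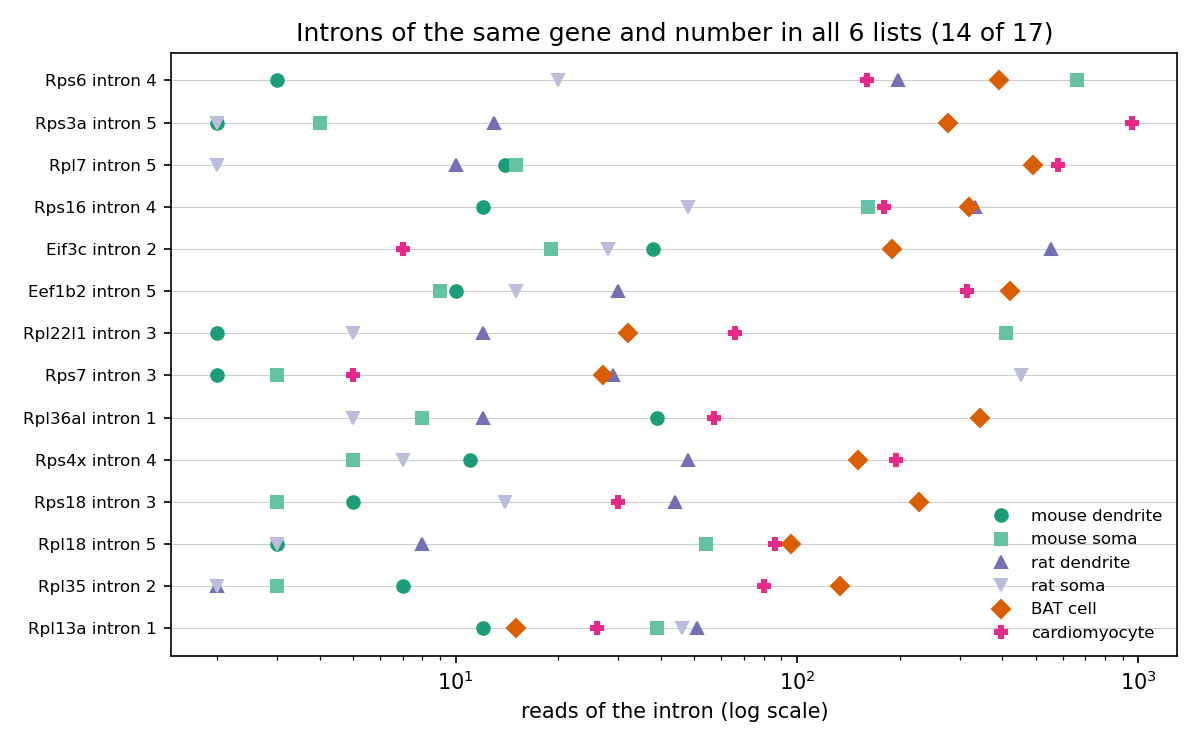
Reads (horizontal axis, log scale) of 14 of the 17 member introns listed under the same gene and number in all 6 lists, 1 line an intron and 1 symbol a list. By reads, BAT cells or cardiomyocytes are highest for 8 of the 14, rat dendrite is highest for Rps16 intron 4 (332 reads), Eif3c intron 2 (555 reads) and Rpl13a intron 1 (51 reads), and mouse dendrite lies at 39 reads or fewer throughout. Reads are not scaled to the totals of the lists, which differ, so this order is not one of RPM.

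The dendrites of both species listed some of the same introns. Those with the most reads were Rps6ka3 intron 3 (211 reads in mouse and 3055 in rat), Eif3c intron 2 (38 and 555), Rps19 intron 5 (539 and 12), Eif3e intron 12 (15 and 343), Rps16 intron 4 (12 and 332), Rpl37a intron 1 (11 and 315), Rps6 intron 4 (3 and 198) and Eif2b3 intron 6 (170 and 6). In each pair 1 species had the bulk of the reads, and it was rat in 6 of the 8.

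Set against the other list of the same species, 40 of the 141 mouse dendrite member introns were also in mouse soma (28.4%, interval 21.1 to 36.6, where all introns gave 25.9%), and they were 42.1% of the soma members (all introns 47.8%). In rat 99 of 229 dendrite members were in soma (43.2%, 36.7 to 49.9, all introns 24.9%), and these were 68.8% of the soma members (60.5 to 76.2, all introns 34.8%). For ribosomal proteins 82 of the 92 rat soma introns, 89.1%, were also in rat dendrite, and 50.6% of the 162 rat dendrite introns were in soma. In mouse 19 of the 35 ribosomal protein introns of dendrite, 54.3%, were in soma, and 45.2% of the 42 of soma were in dendrite. The shares over all introns thus lay within the intervals of the mouse members and below those of the rat members. For ribosomal proteins alone the share of dendrite introns also in soma was above that of all introns in both species. These proteins made up 24.8% of the mouse and 70.7% of the rat dendrite members.

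Outside neurons, of the 247 cardiomyocyte member introns 219 were in BAT cells (88.7%, 84 to 92.3, all introns 60.0%), and of the 392 BAT cell members 55.9% were in cardiomyocytes (50.8 to 60.8, all introns 26.1%). Ribosomal proteins had 135 of 139 cardiomyocyte introns, 97.1%, in BAT cells. Mouse soma members were in BAT cells to 74.7% (all introns 55.5%) and in cardiomyocytes to 62.1% (all introns 32.9%). Seen from the longer lists, 18.1% of BAT cell members (all introns 19.5%) and 23.9% of cardiomyocyte members (all introns 26.6%) were in mouse soma. For these mouse soma comparisons the ribosomal proteins gave 38 of 42 introns in either list.

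Among introns present in both lists of a pair, differences of at least 4-fold in RPM were counted. Of the 40 introns shared by mouse dendrite and soma, 5 were higher in dendrite (12.5%, all introns 32.4%) and 12 in soma (30%, all introns 30.3%), and the median log2 ratio of dendrite to soma was -0.66 (all introns -0.06). The largest differences were Eif2s3x intron 4 (log2 ratio -8.57), Rps6 intron 4 (-8.52) and Rpl22l1 intron 3 (-8.42) toward soma, and Eif2b3 intron 4 (7.42) and Eif3h intron 1 (6.96) toward dendrite. Of the 5 introns furthest toward soma 4 were of ribosomal proteins, and of the 4 furthest toward dendrite none was.

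In rat 48 of 99 shared introns were higher in dendrite (48.5%, all introns 33.6%) and 12 in soma (12.1%, all introns 22.6%), with a median log2 ratio of 1.79 (all introns 0.88). The dendrite end was held by Rps27 intron 2 (7.87, 338 against 3 reads) and Rpl5 intron 5 (6.83), and the soma end by Rpl6 introns 5 and 1 (-8.47 and -7.92), Rps12 intron 3 (-7.28) and Rps16 intron 2 (-6.83). The introns at the soma end were few but carried much of the rat soma total, so that summed ribosomal protein reads were 0.905% of the rat dendrite reads and 0.735% of the rat soma reads. Between BAT cells and cardiomyocytes 49 of 219 were higher in BAT cells (22.4%, all introns 26.8%) and 29 in cardiomyocytes (13.2%, all introns 32.7%), with a median log2 ratio of 0.55 (all introns -0.27). Eif2s3y intron 10, from the Y-linked partner of Eif2s3x, lay furthest toward cardiomyocytes (9 and 1825 reads), and Rps6kb1 intron 14 (1498 and 17 reads) furthest toward BAT cells. Over all its introns Eif2s3y stood at 195 RPM in BAT cells and 212 in cardiomyocytes, and Rps6kb1 at 89 and 11.8.

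In the mouse lists the introns could be set on the annotation of the same build. Of 78 annotated ribosomal protein genes, 28 were listed in mouse dendrite (35.9%, interval 25.3 to 47.6, where 44.2% of all annotated protein-coding genes were listed) and 28 in mouse soma (35.9%, all genes 30.2%). BAT cells listed 56 (71.8%, 60.5 to 81.4, all genes 52.3%) and cardiomyocytes 53 (67.9%, 56.4 to 78.1, all genes 31.8%). Translation factors were listed for 31, 21, 47 and 32 of 58 genes. Of the 156 annotated member genes 27 were in no mouse list (17.3%, 11.7 to 24.2, all genes 36.3%). Of the 78 ribosomal protein genes it was 19 (24.4%, 15.3 to 35.4), among them Rps2, Rpl3, Rpl7a, Rpl30 and Rps24.

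Of all annotated introns of listed member transcripts, 18.2%, 16.5%, 35.7% and 31.8% were listed in mouse dendrite, mouse soma, BAT cells and cardiomyocytes (all transcripts 16.2%, 12.1%, 22.4% and 15%). When a ribosomal protein transcript was listed in BAT cells, about every other of its further introns was too. Beyond the 1 intron that put a transcript on the list, 103 of 198 further introns were listed in BAT cells (52%, 44.8 to 59.2, all transcripts 15.9%) and 81 of 184 in cardiomyocytes (44%, 36.7 to 51.5, all transcripts 8.31%). In mouse dendrite it was 6 of 97 (6.19%, 2.3 to 13, all transcripts 9.58%) and in mouse soma 13 of 107 (12.1%, 6.63 to 19.9, all transcripts 5.61%). Translation factors gave 11.7%, 5.61%, 24.9% and 18.2% in mouse dendrite, mouse soma, BAT cells and cardiomyocytes, and mitochondrial ribosomal proteins 6.38%, 3.33%, 38.7% and 19.1%.

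Contigs of these genes often took the entire intron. At least 90% of the intron lay in contigs for 136 of 158 ribosomal protein introns in BAT cells (86.1%, 79.7 to 91.1, all introns 12%) and for 96 of 133 in cardiomyocytes (72.2%, 63.7 to 79.6, all introns 11.3%). In mouse dendrite it was 9 of 32 (28.1%, 13.7 to 46.7, all introns 1.21%) and in mouse soma 12 of 40 (30%, 16.6 to 46.5, all introns 2.86%). Contigs reached both the first and the last base of the intron in 134 of the 158 BAT cell introns and in 94 of the 133 cardiomyocyte introns. A contig joins reads that lie near each other, so it can span bases that hold no read, and a short intron is covered more readily than a long one.

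Length was therefore held in classes. For introns of at least 500 and under 1000 nt, 31 of 34 ribosomal protein introns were covered whole in BAT cells (91.2%, 76.3 to 98.1, all introns 28.3%) and 22 of 30 in cardiomyocytes (73.3%, 54.1 to 87.7, all introns 28.5%). From 1000 nt and under 3000 nt these were 13 of 22 (59.1%, 36.4 to 79.3, all introns 4.4%) and 6 of 20 (30%, 11.9 to 54.3, all introns 3.84%). Under 200 nt the families and all introns differed little, at 91.7% and 83.7% in BAT cells and 86.8% and 78.5% in cardiomyocytes. With reads held as well, at 128 reads or more, all 18 ribosomal protein introns of at least 500 and under 1000 nt in BAT cells and all 14 in cardiomyocytes were covered whole (all introns 44.4% and 34.1%). At 1 to 31 reads it was 7 of 10 in BAT cells (70%, all introns 17.5%) and 1 of 8 in cardiomyocytes (12.5%, interval 0.316 to 52.7, all introns 16.8%), so in the least read cardiomyocyte introns the share was not above that of all introns. In mouse dendrite 2 of 10 introns of this length were covered (20%, 2.52 to 55.6, all introns 3.83%) and in mouse soma 1 of 8 (12.5%, 0.316 to 52.7, all introns 8.32%). Under 200 nt it was 4 of 7 (57.1%, 18.4 to 90.1, all introns 57.5%) and 7 of 8 (87.5%, 47.3 to 99.7, all introns 62.6%). From 200 nt and under 500 nt it was 3 of 9 (33.3%, 7.49 to 70.1, all introns 18.1%) and 4 of 16 (25%, 7.27 to 52.4, all introns 27.5%). In the neuronal lists these intervals all held the value of all introns, and the introns are few. With contigs of at most 400 nt, 2 and 7 ribosomal protein introns of at least 500 and under 1000 nt were left in BAT cells and cardiomyocytes. None of these was covered whole, nor any other intron of that length. The limit fixed this outcome, since such contigs are too short to fill the intron and reads up to 500 nt apart were joined. This class therefore cannot be compared under the limit. For introns under 200 nt and of at least 200 and under 500 nt the ribosomal protein shares were then 44 of 48 and 38 of 43 in BAT cells (91.7% and 88.4%, all introns 83.7% and 52.5%) and 33 of 38 and 28 of 37 in cardiomyocytes (86.8% and 75.7%, all introns 78.5% and 44.7%).

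Translation factors lay between, with 44% of introns of any length covered whole in BAT cells, 41.7% in cardiomyocytes, 18.2% in mouse soma and 5.97% in mouse dendrite. Mitochondrial ribosomal proteins had 65 of 153 in BAT cells and 22 of 73 in cardiomyocytes. Within the class of at least 500 and under 1000 nt the translation factors had 10 of 18 in BAT cells (55.6%, 30.8 to 78.5) and 6 of 13 in cardiomyocytes (46.2%, 19.2 to 74.9).

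**Figure D4:**
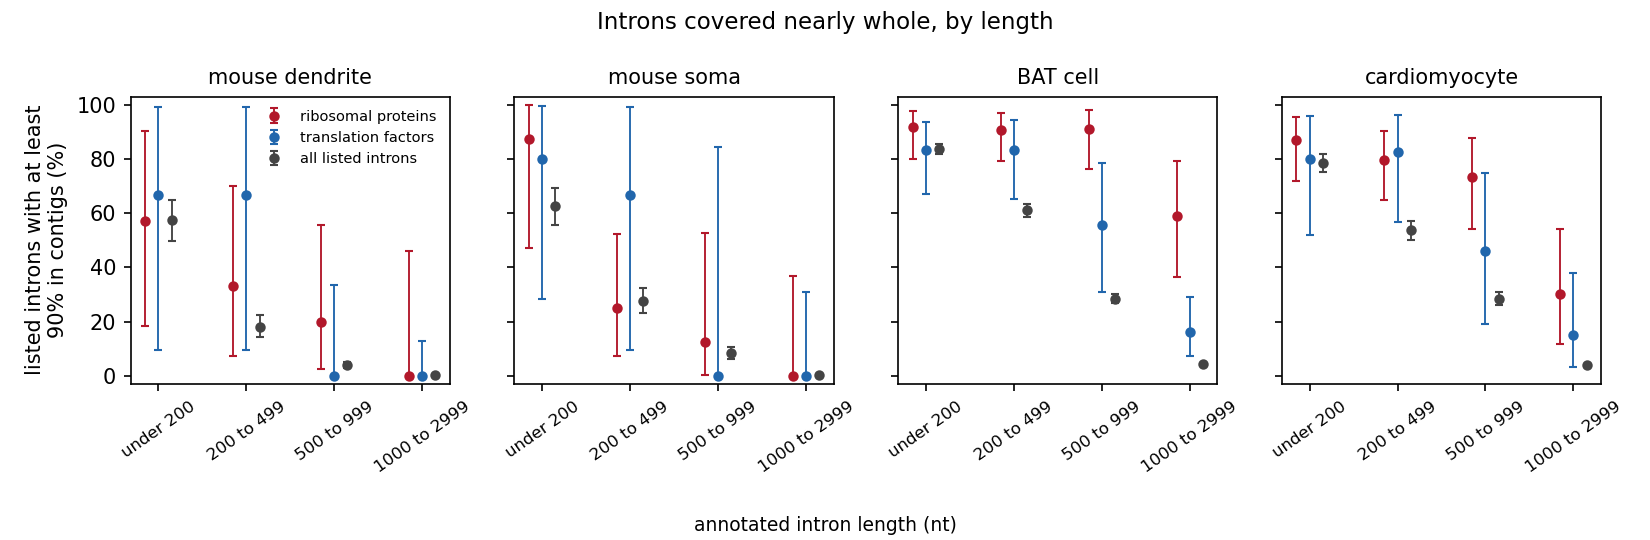
Share of listed introns with at least 90% of their bases in contigs (percent, vertical axis) by annotated intron length in nt (horizontal axis) in the 4 mouse lists, for ribosomal proteins, translation factors and all listed introns; points are shares and lines exact 95% binomial intervals. In BAT cells the ribosomal protein share stays between 90.6% and 91.7% under 1000 nt while that of all introns falls from 83.7% to 28.3%.

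The introns and contigs of ribosomal proteins shared further features that the symbol rule did not use. Their median GC content was 50%, 48.9%, 48% and 47.7% in mouse dendrite, mouse soma, BAT cells and cardiomyocytes, against 41.9%, 42.1%, 42.2% and 41.9% over all listed introns. Their intron number was over 50% of the number of introns in the transcript in 65.6%, 80%, 63.3% and 71.4% of cases (all introns 47.7%, 51.6%, 52.5% and 54.6%). With an odd number of introns this counts the middle one, which raises the share most in transcripts with few introns. The median number of introns was 4.5, 5, 5 and 5 for ribosomal proteins and 14, 14, 14 and 13 for all listed introns. The part of this in the difference was not tested. The last intron made up 28.1%, 32.5%, 27.2% and 32.3% of the ribosomal protein introns, where the number of introns per transcript alone would give 25.3%, 23.1%, 22.2% and 23%. Over all listed introns the last ones were 8.84%, 11.3%, 11.6% and 13.8%, where intron number would give 9.89%, 10.3%, 10.4% and 10.7%, so a share above it in mouse soma, BAT cells and cardiomyocytes was not particular to ribosomal proteins.

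Many of these contigs fell where the annotation already has an exon on the same strand, in part of a transcript annotated as retaining the intron. Exons of the same strand were touched by 48.6%, 51.2%, 49.7% and 50% of ribosomal protein contigs in the 4 mouse lists (all contigs 4.36%, 8.58%, 6.81% and 10.2%). Transcripts of the retained-intron class were touched by 8 of 35, 13 of 43, 54 of 169 and 47 of 146, which is 22.9%, 30.2%, 32% and 32.2% (all contigs 2.4%, 5.08%, 3.81% and 5.77%). Among ribosomal protein introns of listed transcripts that such an annotated transcript spans, 33 of 49 were listed in BAT cells, 67.3%, and among those not spanned 125 of 204, 61.3%, with intervals that overlap (52.5 to 80.1 and 54.2 to 68), where all introns gave 19.1% and 22.5%. The spanned and not spanned shares were 22.7% and 26.7% in mouse dendrite (all introns 6.86% and 16.4%), 25% and 31.4% in mouse soma (all introns 9.31% and 12.2%), and 56.2% and 56.4% in cardiomyocytes (all introns 16.3% and 14.9%). Exons of the opposite strand, whose reads cannot be told apart without strand, were touched by 0, 0, 2 and 2 ribosomal protein contigs, which is 0%, 0%, 1.18% and 1.37% (all contigs 0.749%, 1.16%, 0.834% and 1.43%).

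Ribosomal protein introns were listed to a lower share when they hold a snoRNA. In BAT cells 8 of 44 snoRNA-holding introns of ribosomal protein transcripts were listed (18.2%, 8.19 to 32.7, all introns 17.7%), against 150 of 209 without one (71.8%, 65.1 to 77.8, all introns 22.4%). In cardiomyocytes it was 7 of 39 (17.9%, 7.54 to 33.5, all introns 13.6%) against 126 of 197 (64%, 56.8 to 70.7, all introns 15%). With a snoRNA 2 of 24 were listed in mouse dendrite (8.33%, 1.03 to 27, all introns 13.4%) and 3 of 18 in mouse soma (16.7%, 3.58 to 41.4, all introns 6.32%). Without one it was 30 of 99 (30.3%, 21.5 to 40.4, all introns 16.2%) and 37 of 116 (31.9%, 23.6 to 41.2, all introns 12.2%), so that in the neuronal lists the intervals with and without a snoRNA overlap. Translation factors had few such introns, with 6 of 16 listed in BAT cells (37.5%, 15.2 to 64.6) against 31.5% of those without, and 3 of 6 in cardiomyocytes against 26%. The authors removed introns that overlap known non-coding RNA families, and the part of that filter in these shares was not tested. Of the ribosomal protein genes, 6 of 28 with a snoRNA and 13 of 50 without were in no mouse list.

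Since the amplification starts from a poly(T) primer, a run of adenines downstream of a contig is a place where priming inside an intron could begin, and whether it did was not tested. A run of at least 10 within 300 nt downstream, on the strand of the gene, was found beside 0 of 35, 1 of 43, 2 of 169 and 2 of 146 ribosomal protein contigs in mouse dendrite, mouse soma, BAT cells and cardiomyocytes. These are 0%, 2.33%, 1.18% and 1.37% (upper bounds 10, 12.3, 4.21 and 4.86), against 8.08%, 18.5%, 7.34% and 9.42% of all contigs. Translation factor contigs gave 5%, 5.56%, 4.62% and 2.22%, and all member contigs 3.73%, 5.83%, 3.84% and 2.21%. With runs of at least 8 the member share was 8.7% in mouse dendrite, 9.71% in mouse soma, 6.09% in BAT cells and 5.54% in cardiomyocytes, and that of all contigs 12.4%, 25.1%, 11.5% and 14.6%. For contigs in short introns most of this window lies in the exons downstream. The window lay within the intron for 7, 4, 6 and 7 ribosomal protein contigs only, and held a run for none of them (all contigs 8.56%, 20.7%, 8.84% and 11.5%), too few for a comparison of introns.

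**Figure D5:**
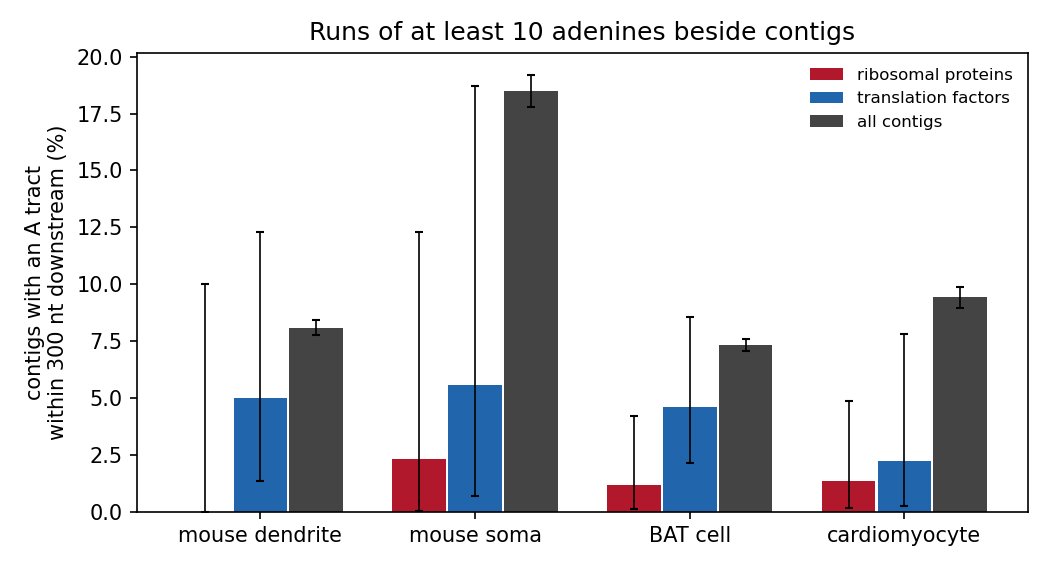
Share of contigs with a run of at least 10 adenines within 300 nt downstream (percent, vertical axis) in the 4 mouse lists, for ribosomal proteins, translation factors and all contigs; bars show the share and lines its exact 95% binomial interval. Ribosomal protein bars lie between 0% and 2.33%, and those of all contigs between 7.34% and 18.5%.

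A few members with such a run downstream are given, 3 whose contigs ended beside it and 1 ribosomal protein with a run further away. They are shown with up to 20 bases on either side and the run in capitals, from the mouse genome (NCBIM37) on the strand of the gene.
Eif2b3 intron 3 in mouse dendrite, chr4:116709694-116709737, plus strand: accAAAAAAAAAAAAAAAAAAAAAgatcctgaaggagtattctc
Rps6ka3 intron 1 in BAT cells, chrX:155708010-155708050, plus strand: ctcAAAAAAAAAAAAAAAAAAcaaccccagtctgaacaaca
Eif4a3 intron 9 in cardiomyocytes, chr11:119153224-119153268, minus strand: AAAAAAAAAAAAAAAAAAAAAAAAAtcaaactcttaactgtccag
Rpl41 intron 2 in BAT cells, chr10:127985493-127985544, minus strand: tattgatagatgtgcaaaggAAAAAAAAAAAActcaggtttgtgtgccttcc
The Eif2b3 contig (460 reads in its intron) ended 3 nt before its run of 21 adenines and the Rps6ka3 contig, 1 of 6 in an intron with 4450 reads, 3 nt before a run of 18. The Eif4a3 contig (24 reads) ended directly at 25 adenines. For Rpl41 intron 2 (950 reads) the run of 12 lay 212 nt away, inside intron 3, the intron shown above that itself was the most read member intron of cardiomyocytes.

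The rest of the translation machinery was followed with a list of 39 genes outside the symbol rule, among them the acidic stalk proteins of the ribosome, release factors, poly(A)-binding proteins and the mTOR pathway. In the 6 lists 22, 25, 18, 17, 33 and 32 of them were listed, with 51, 42, 48, 34, 131 and 77 introns, which is 0.262%, 0.397%, 0.646%, 0.64%, 0.436% and 0.59% of each list. Rplp0 of the stalk, a ribosomal protein in all but symbol, had no listed intron in mouse dendrite and 3, 184, 74, 744 and 282 reads in the other lists. Rplp1 had 10 reads in mouse dendrite, 99 in rat dendrite, 1325 in BAT cells and 303 in cardiomyocytes and was in neither soma list. Rplp2 had 85 reads in mouse soma, 7 in rat dendrite, 16 in rat soma, 609 in BAT cells and 687 in cardiomyocytes, and none listed in mouse dendrite.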

How the data were processed

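The deposited files were 1 list of intronic contigs for each of 6 conditions (26 libraries in the labels), each with a read count per intron. Per the study, the authors aligned reads to mm9 or rn4, kept unique reads and joined nearby intronic reads into contigs. They removed introns that overlap known non-coding RNA families, predicted genes or poly(A) sites. The labels name 1 list for all libraries of a condition, so its libraries were taken as pooled. The counts are raw read numbers that the authors deposited per intron and repeated on each of its contigs, so each was used once per transcript and intron. Depth of the libraries is not in the lists, and RPM refers to 1000000 listed reads.

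Contigs were chosen by symbol. Mouse introns were matched to the annotation of NCBIM37 (the assembly of mm9) by position and number. Rat intron lengths and sequences were not analysed here. Introns of Rps4x and Rpl41 and most of those listed for Rps6ka6 were not matched. Shares carry exact (Clopper-Pearson) 95% binomial intervals from scipy 1.17.1, which cover counting error only. With 1 pooled list a condition no test was possible, and the steps were tested on simulated data. A difference of at least 4-fold in RPM was counted as called.

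The members, lists and alternatives were chosen with earlier results of these data known. Named were hosts of the 3 most read introns of each list, member introns in at least 3 of 4 mouse lists (the 12 most read), genes of all 6 lists, the 4 highest genes of each role group by mean RPM, Rps24, and the 8 most read introns shared by the dendrites of both species. Other genes, among them those at the ends of a comparison, those in no list and those beside adenine runs, were chosen after their values were seen. Some ribosomal protein genes that this rule names are not reported here by name, and counts and shares include them.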

Additional observations from a re-analysis of the deposited data

How the results depend on the processing

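Of 126 recomputed values 62 moved by less than their 95% interval and 64 moved further. No paired analysis was possible because each condition is 1 pooled list and no test was made, and leaving out a library was likewise not possible. Values below follow the order of the report, mouse dendrites and somas, those of the rat, BAT cells and cardiomyocytes, where a list that did not move is left out. With introns of at least 32 reads, the member share of introns became 0.569%, 0.619%, 2.49%, 1.83% and, in BAT cells, 1.6%, the ribosomal protein share 0.0669%, 0.278%, 1.78%, 1.12% and, in BAT cells, 0.818%, and the median contig 293, 382, 311, 299, 372 and 405 nt. At that minimum the share of ribosomal protein introns covered whole was 93.9% in BAT cells and 84.9% in cardiomyocytes, and the shared share was 51.4% for rat dendrite in soma (all introns 30.7%), 73.2% and 23.8% for BAT cells in cardiomyocytes and in mouse soma (33.6% and 25.4%), and 30.4% for cardiomyocytes in mouse soma (31.9%). Without the kinases and Argonautes the member share of introns was 0.524% and 0.71% in mouse dendrite and soma and 1.1% in BAT cells, and the share of reads 0.493%, 0.265%, 1.38%, 0.839%, 0.797% and 0.85%. Without the most read member intron the share of reads was 0.431%, 0.327%, 1.48%, 0.769%, 0.821% and 0.873%, and with reads repeated on each contig 0.597%, 0.297%, 1.88%, 0.787%, 0.52% and 0.461%. Contigs of at most 400 nt gave a read share of 0.467% in mouse soma, 2.33% in rat soma, 0.911% in BAT cells and 1.22% in cardiomyocytes, and a member share of introns of 3.46% in rat soma, whether the limit was set for whole cells or for all lists. The share of annotated introns listed was then 13.1% in mouse soma, 23.8% in BAT cells and 21.5% in cardiomyocytes, and for introns of at least 1000 nt 24.7% in mouse dendrite and 25.8% in cardiomyocytes. With at least 4 reads the median member intron had 26.5 reads in mouse dendrite and 19.5 in rat soma, and with ribosomal proteins only 5 in mouse dendrite and 122 in BAT cells. Runs of at least 8 adenines lay beside 8.7%, 6.09% and 5.54% of member contigs in mouse dendrite, BAT cells and cardiomyocytes. Where contigs had to overlap by 1 base, 82.2% of cardiomyocyte and 57.9% of mouse soma members were in BAT cells (all introns 39.3% and 29.1%) and 14% of BAT cell members in mouse soma (10.3%). The minimum of 32 reads and the 400-nt limit for the ribosomal proteins, and the rule that contigs reach both ends of an intron, were chosen after seeing the data. Where the member shares of introns (minimum of 32 reads, 400-nt limit, without kinases and Argonautes) and of reads (repeated reads, without the most read intron, without kinases and Argonautes, and for somas the 400-nt limit) were recomputed, they were lower in mouse than in rat dendrites and lower in mouse than in rat somas, and the cause of the shifts was not tested.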
